A study of Mus musculus with 13 samples.

Results

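The hypoxia response and glycolysis were followed through 44 named genes in erythroid cells of mouse fetal liver, with and without Adar, the gene of the RNA-editing enzyme ADAR1. The list holds 13 glycolytic enzymes, 3 regulators of glycolytic flux, 3 glucose or lactate transporters, 5 subunits or oxygen sensors of the hypoxia-inducible factor (HIF), and 20 other genes known as HIF targets. Genes were chosen by name, as the only symbol of a probe set, and all 44 were measured among the 19938 genes of the array. The measured value in this choice was the mean over the 13 arrays, which picked the brightest probe set where a gene had several. The list was drawn up with results of these arrays known, so its counts are descriptions and were not tested as a set.

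RNA came from 6 embryos at E14.5, and each of the 13 arrays holds 1 sorted population of 1 embryo. All embryos carried EpoR-Cre (ki/+), a Cre recombinase knocked into the erythropoietin receptor gene and so expressed in erythroid cells, on a background labelled C57JB6. The 3 knockout embryos (numbers 1, 10 and 11) were Adar fl/-, and the 3 control embryos (2, 13 and 15) were fl/+, so the controls also lose 1 copy wherever Cre acts. The R26 EYFP reporter was ki/+ in all controls and in knockout embryo 1, and +/+ in knockout embryos 10 and 11. Cells were sorted by Ter119, an antigen of the erythroid surface, and CD71, the transferrin receptor. Ter119- CD71+ progenitors are represented by all 6 embryos. Ter119+ CD71+ cells, at a later stage, come from knockouts 10 and 11 and all 3 controls. The CD71med fraction of Ter119+ cells was taken from control embryos 13 and 15. Arrays of 1 embryo share an animal. Both CD71+ populations are called Ter119- and Ter119+ cells below, and values are given in the order of these embryo numbers.

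HIF is a pair of proteins, an oxygen-labile alpha subunit (the product of Hif1a or Epas1) and the stable subunit encoded by Arnt. In the presence of oxygen, prolyl hydroxylases of the Egln family mark the alpha subunit for destruction through the von Hippel-Lindau protein, so much of HIF control acts on protein rather than on transcript. When the alpha subunit persists, HIF binds short elements in its targets, among them nearly every step of glycolysis, lactate export, angiogenic factors and regulators of mitochondria. Erythroid cells discard their mitochondria as they mature, and the finished red cell lives on glycolysis alone.

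Values are log2 signals of RMA-processed arrays. A difference of 1 on this scale is a doubling of signal, and signals of different genes are not compared with each other. Differences were tested with limma across all genes, and a gene was called higher or lower at a Benjamini-Hochberg adjusted p under 0.05. The Adar probe set did not separate the genotypes. It read 7.39, 7.64 and 7.53 in knockout and 7.20, 7.81 and 7.79 in control Ter119- cells, and 7.68 and 8.10 against 7.43, 7.72 and 8.37 in Ter119+ cells. Its position relative to the deleted part of the gene is not known here, so it checks nothing, and "knockout" means labelled as such. Kit, the progenitor receptor, fell by 3.05 (SE 0.18, adjusted p = 1.81e-07) from control Ter119- to Ter119+ cells, and Alas2, the erythroid heme enzyme, rose by 2.09 (SE 0.14, adjusted p = 5.13e-07). The transcript of CD71, Tfrc, read 12.48 and 12.47 in CD71med cells against 12.52, 12.23 and 12.20 in control Ter119+ cells. The mean of 10 measured erythroid markers (of 12 listed) was lower in knockouts. It was 9.19 to 9.40 against 9.44 to 9.68 in Ter119- cells, and 9.62 to 9.65 against 9.81 to 10.05 in Ter119+ cells. Of these 10 markers, 1 was called lower in knockout Ter119- cells and 0 in Ter119+ cells (0.858% and 1.08% of all genes), and 0 were called higher in either. The list holds both Kit and Alas2, which move in opposite directions with maturation, so its mean does not measure stage alone. The mean of 19 neutrophil and myeloid markers was 5.87 to 7.21 in knockout Ter119- cells, highest in embryo 10, and 5.12 to 5.59 in their controls. Of these 19 markers, 4 (Mpo, Fcnb, S100a9 and Ms4a3) were called higher there, where 1.35% of all genes were. In Ter119+ cells the same mean was 5.30 to 5.45 in knockouts and 5.26 to 5.46 in controls, with 0 of 19 called. The mean of 18 hepatocyte markers was 5.60 to 5.91 against 5.85 to 5.96 in Ter119- cells, and 5.84 to 6.24 against 6.27 to 6.46 in Ter119+ cells.

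HIF recognises a core of 5 letters, ACGTG or GCGTG. RefSeq promoter windows (GRCm38.p6, 250 bases before to 50 after a start site) were matched by symbol for 39 of the 44 genes, in 58 windows, because 12 genes have more than 1. The core stood on either strand in 45 of 58 member windows (77.6%) and in 14380 of all 32851 windows (43.8%). Members were listed partly as known HIF targets, so the higher share among them is no independent finding. Both forms of the core hold CG, and windows were not matched for base composition. Windows of 1 gene can overlap and share a match, so they are not independent. By gene, 35 of 39 had the core in at least 1 window. The share by gene over all genes was not counted, and the 43.8% of windows is not its like, because several windows give a gene more room for a match. In the 200 bases before the start alone, the shares were 69.0% and 34.1%. At least 1 window held the core in 19 of 21 members called higher in a knockout comparison and in 16 of 18 that were not. The core is part of the E-box CACGTG, which other factors bind, and a match is a description, not a binding site. The 250 bases before the start are printed for 4 genes, those with 1 window and the smallest adjusted p in knockout Ter119- cells among the members higher in both knockout populations. They run 5′ to 3′ along the gene's strand, and capitals mark the core on either strand (CACGT or CACGC where it lies on the other strand). They are Bnip3 (chr7:138909507-138909756, minus strand), Pfkp (chr13:6648772-6649021, minus strand), P4ha1 (chr10:59323046-59323295, plus strand) and Pgk1 (chrX:106186850-106187099, plus strand).
Bnip3: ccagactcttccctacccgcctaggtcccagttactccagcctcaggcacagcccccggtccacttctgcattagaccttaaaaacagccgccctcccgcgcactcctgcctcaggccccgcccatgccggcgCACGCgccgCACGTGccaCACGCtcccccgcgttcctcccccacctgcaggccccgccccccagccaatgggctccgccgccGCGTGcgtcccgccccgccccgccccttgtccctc
Pfkp: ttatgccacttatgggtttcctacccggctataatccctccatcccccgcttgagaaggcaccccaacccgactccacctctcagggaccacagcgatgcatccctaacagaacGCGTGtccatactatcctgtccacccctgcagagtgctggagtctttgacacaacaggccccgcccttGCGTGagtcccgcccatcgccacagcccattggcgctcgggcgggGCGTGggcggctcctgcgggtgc
P4ha1: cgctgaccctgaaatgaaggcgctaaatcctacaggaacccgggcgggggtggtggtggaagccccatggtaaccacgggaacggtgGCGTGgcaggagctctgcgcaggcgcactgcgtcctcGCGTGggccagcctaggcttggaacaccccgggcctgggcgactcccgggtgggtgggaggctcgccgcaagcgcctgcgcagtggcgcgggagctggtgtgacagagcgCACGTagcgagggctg
Pgk1: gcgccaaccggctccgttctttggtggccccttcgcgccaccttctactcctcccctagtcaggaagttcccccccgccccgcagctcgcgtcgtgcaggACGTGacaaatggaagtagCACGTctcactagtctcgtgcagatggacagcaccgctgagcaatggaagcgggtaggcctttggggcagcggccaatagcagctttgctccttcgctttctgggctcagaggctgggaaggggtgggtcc
The Bnip3 stretch holds 5 matches, 2 of which overlap in an E-box, the Pfkp and P4ha1 stretches 3 each, and the Pgk1 stretch 2.

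**Figure D1:**
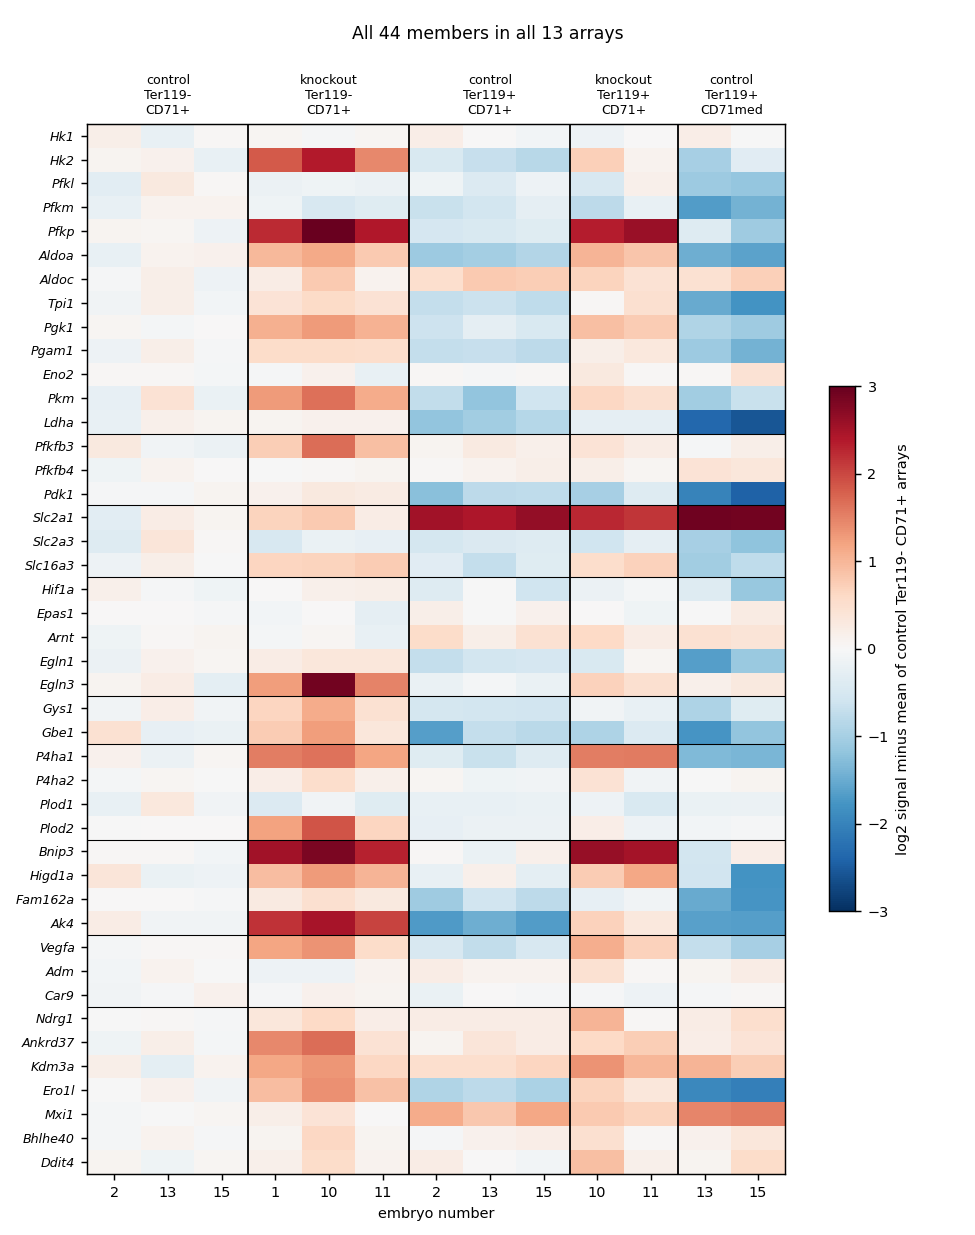
Colours give the log2 signal of each of the 44 genes (rows, by role) in each of the 13 arrays (columns, by embryo number), minus that gene's mean in the control Ter119- arrays, and values more than 3 units from that mean take the end colours. Pfkp, Bnip3 and Ak4 stand out in the 3 knockout Ter119- arrays, Slc2a1 rises in all Ter119+ arrays, and Ldha, Pdk1 and Ero1l are lowest in the 2 CD71med arrays.

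The question of the knockout comparisons is what loss of Adar changes in erythroid cells at each stage. In Ter119- cells, 19 of the 44 genes were higher in knockouts and 0 were lower, where 1.35% and 0.858% of all genes tested were called higher and lower. The median difference over the 44 was 0.42 on the log2 scale, against 0.0016 over all genes. In Ter119+ cells, 14 of 44 were higher and 0 lower, against 1.48% and 1.08% of all genes, and the median was 0.39 against 0.024. Over all 44 genes, 27 had every knockout array above every control array in Ter119- cells and 0 had every one below (9.92% and 11.6% of all genes). In Ter119+ cells 22 had every knockout array above (11.4%). There 2 genes, Slc2a1 and Mxi1, had every knockout array below every control array (10.7% of all genes). In whole-population RNA such as this, fewer cells of a type and less RNA per cell cannot be told apart. There were 11 genes called higher in both populations, where 0.487% of all genes were. They are Pfkp, Aldoa, Pgk1, Pgam1, Pkm, Slc16a3, P4ha1, Bnip3, Ak4, Vegfa and Ero1l. The populations share embryos but no arrays. A further 8 were called in Ter119- cells alone (Hk2, Pfkfb3, Egln3, Gys1, Plod2, Higd1a, Ankrd37 and Kdm3a) and 3 in Ter119+ cells alone (Tpi1, Ldha and Fam162a).

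The glycolytic enzymes rose at several steps of the pathway. In Ter119- cells 6 of 13 were called higher (Hk2, Pfkp, Aldoa, Pgk1, Pgam1 and Pkm) and in Ter119+ cells 7 of 13 (Pfkp, Aldoa, Tpi1, Pgk1, Pgam1, Pkm and Ldha). Hexokinases trap glucose as its phosphate at the entry of glycolysis. Hk2, the inducible hexokinase, read 7.96, 8.51 and 7.56 in knockout and 6.20, 6.25 and 5.91 in control Ter119- cells. Every knockout array was above every control array, and embryo 10 was the highest. The difference was 1.89 (SE 0.24, adjusted p = 0.001), a 3.71-fold higher signal. In Ter119+ cells Hk2 read 6.84 and 6.22 in knockouts and 5.67, 5.44 and 5.30 in controls, again without overlap, and the difference of 1.06 (SE 0.26, adjusted p = 0.0509) was not called. Hk1, the constitutive hexokinase, lay between 11.55 and 11.96 in all 13 arrays, with differences of 0.03 and -0.12 that were not called, on a probe set whose accession is also listed with a ribosomal gene.

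Phosphofructokinase commits the sugar to glycolysis, and 1 of its 3 genes was called. Pfkp, the platelet-type subunit, showed the widest change of the enzymes. It read 8.79, 9.51 and 8.93 in knockout and 6.62, 6.60 and 6.39 in control Ter119- cells, then 8.90 and 9.12 against 6.04, 6.09 and 6.18 in Ter119+ cells. The lowest knockout array was more than 2 log2 units above the highest control in both populations. The differences were 2.54 (SE 0.19, adjusted p = 5.44e-06) and 2.91 (SE 0.21, adjusted p = 5.85e-06), a 5.81-fold and a 7.54-fold higher signal. Pfkl, the liver-type subunit, read 8.78, 8.83 and 8.77 in knockout against 8.64, 9.24 and 8.98 in control Ter119- cells, and 8.47 and 9.09 against 8.82, 8.54 and 8.80 in Ter119+ cells, with overlap in both. Its differences of -0.15 (95% interval -0.51 to 0.20) and 0.06 (-0.34 to 0.46) were not called. Pfkm, the muscle-type subunit, read 8.65, 8.32 and 8.43 against 8.57, 8.89 and 8.90 in Ter119- cells, and 7.99 and 8.56 against 8.12, 8.24 and 8.52 in Ter119+ cells. Its differences of -0.32 (-0.67 to 0.03) and -0.01 (-0.40 to 0.38) were not called either.

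Aldolase splits the hexose. Aldoa, its main form, read 12.27, 12.44 and 12.09 in knockout and 11.06, 11.41 and 11.41 in control Ter119- cells, a difference of 0.97 (SE 0.13, adjusted p = 0.00137). Among Ter119+ arrays it read 12.32 and 12.13 against 10.19, 10.28 and 10.42, a difference of 1.93 (SE 0.14, adjusted p = 7.13e-06). Both knockout Ter119+ arrays lay in or near the range of the knockout Ter119- arrays, while the 3 control Ter119+ arrays lay below all control Ter119- arrays. Aldoc, a related aldolase, read 5.90, 6.49 and 5.80 against 5.65, 5.87 and 5.55 in Ter119- cells and 6.36 and 6.13 against 6.19, 6.47 and 6.42 in Ter119+ cells, and its differences of 0.37 and -0.11 were not called. Tpi1, which interconverts the triose phosphates, read 11.16, 11.31 and 11.17 against 10.64, 10.93 and 10.66 in Ter119- cells, separated but not called at 0.47 (SE 0.13, adjusted p = 0.0838). In Ter119+ cells it read 10.78 and 11.21 against 10.02, 10.10 and 9.99 and was called, with a difference of 0.96 (SE 0.15, adjusted p = 0.00268).

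The later steps of the pathway, where ATP is made, held 5 further enzymes. Pgk1, an ATP-yielding kinase, read 12.05, 12.27 and 12.03 in knockout and 11.05, 10.92 and 10.99 in control Ter119- cells, and 11.88 and 11.74 against 10.36, 10.72 and 10.53 in Ter119+ cells. The arrays did not overlap, and the differences were 1.13 (SE 0.12, adjusted p = 0.000139) and 1.27 (SE 0.13, adjusted p = 0.000137). Pgk1 is X-linked, and the embryos differ in sex. Y-linked Uty read 8.47, 3.87 and 3.67 in the knockout and 3.74, 3.53 and 8.50 in the control Ter119- arrays, so embryos 1 and 15 were male. The Ter119- arrays thus hold 1 male on each side, and the Ter119+ arrays 1 of 3 among controls and 0 of 2 among knockouts. Pgam1, the phosphoglycerate mutase, read 9.18, 9.17 and 9.16 in the knockout arrays, close together, against 8.48, 8.81 and 8.60 in their controls, a difference of 0.54 (SE 0.11, adjusted p = 0.0248). It read 8.82 and 8.95 in knockout against 7.92, 7.94 and 7.84 in control Ter119+ cells, a difference of 0.99 (SE 0.13, adjusted p = 0.000796). Eno2, an enolase best known from neurons, stayed between 5.03 and 5.69 in all arrays and was called in no comparison.

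Pkm, the pyruvate kinase gene, read 10.23, 10.59 and 10.06 in knockout and 8.71, 9.39 and 8.74 in control Ter119- cells, and 9.57 and 9.43 against 8.21, 7.77 and 8.35 in Ter119+ cells. Knockouts were above controls in both, by 1.34 (SE 0.20, adjusted p = 0.00408) and 1.39 (SE 0.23, adjusted p = 0.00529). Its splice forms are not told apart here. Ldha, which turns pyruvate into lactate, read 12.50, 12.53 and 12.54 against 12.20, 12.55 and 12.48 in Ter119- cells, where the arrays overlapped and the difference was 0.11 (SE 0.12, adjusted p = 0.804). In Ter119+ cells it read 12.14 and 12.13 against 11.22, 11.38 and 11.56, and knockouts were higher by 0.75 (SE 0.13, adjusted p = 0.0084).

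**Figure D2:**
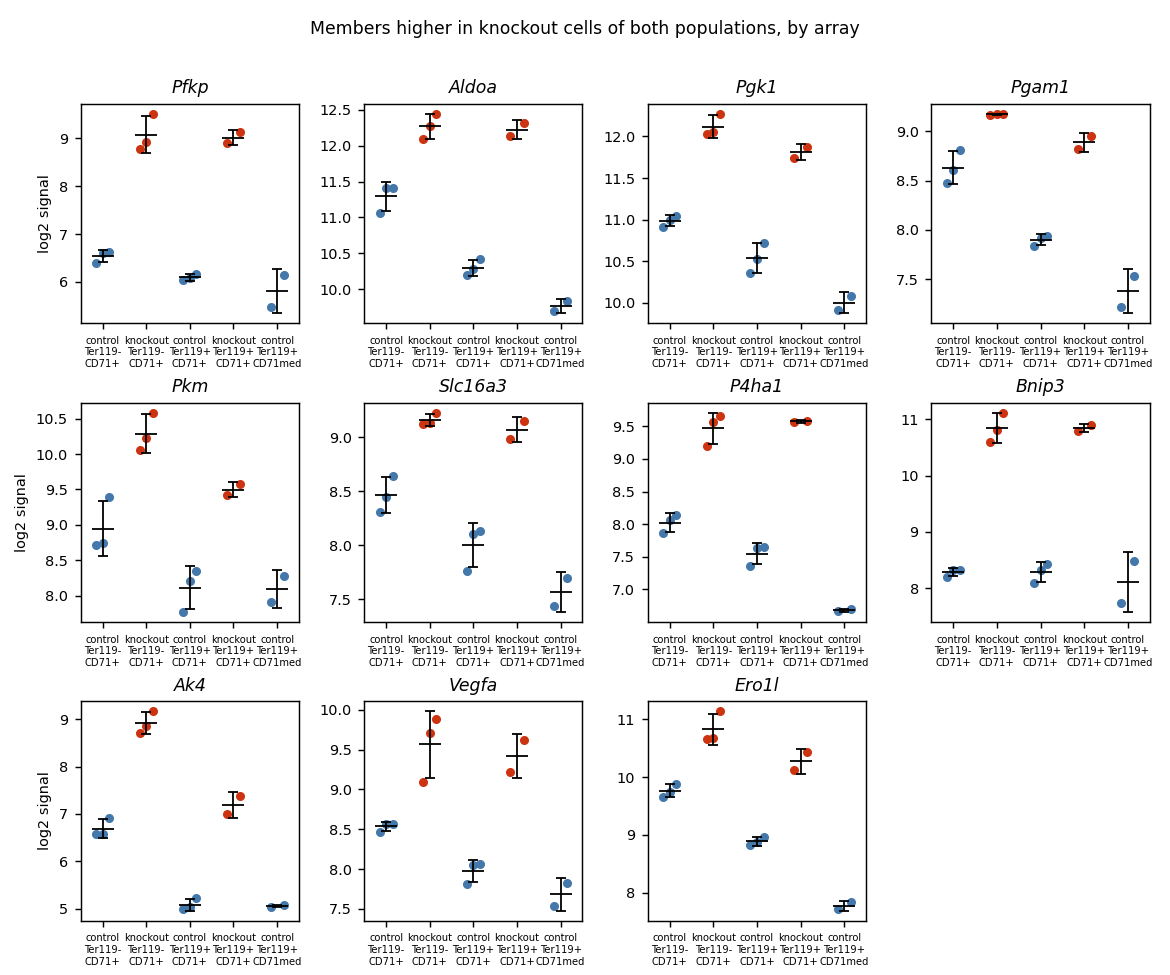
Points give the log2 signal of single arrays for the 11 genes called higher in knockout cells of both populations, by group, with the group mean and SD as black bars (2 or 3 arrays a group; blue control, red knockout). Each panel has its own axis, and in every panel the red points lie above the blue points of the same population.

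Among the 3 regulators of flux, Pfkfb3 was called, in knockout Ter119- cells. Pfkfb3 makes the sugar bisphosphate that activates phosphofructokinase. It read 5.71, 6.66 and 5.88 in knockout and 5.27, 4.87 and 4.81 in control Ter119- cells, highest in embryo 10, a difference of 1.10 (SE 0.20, adjusted p = 0.0134). In Ter119+ cells the knockouts read 5.39 and 5.21 and the controls 5.07, 5.25 and 5.13, with overlap. Its relative Pfkfb4 stayed between 4.91 and 5.45 in all arrays and was called nowhere. Pdk1, the kinase that closes the pyruvate dehydrogenase gate into mitochondria, read 9.40, 9.58 and 9.51 against 9.23, 9.24 and 9.35 in Ter119- cells, and 8.28 and 8.88 against 8.03, 8.49 and 8.50 in Ter119+ cells. Its differences of 0.22 (95% interval -0.14 to 0.58) and 0.24 (-0.17 to 0.64) were not called.

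The 3 transporters took different paths. Slc16a3 encodes MCT4, the lactate exporter of glycolytic cells. It read 9.12, 9.13 and 9.23 in knockout and 8.31, 8.65 and 8.45 in control Ter119- cells, and 8.99 and 9.15 against 8.14, 7.76 and 8.11 in Ter119+ cells. Knockouts were higher in both populations, by 0.69 (SE 0.13, adjusted p = 0.0139) and 1.07 (SE 0.14, adjusted p = 0.00123). Slc2a1 encodes GLUT1, the main glucose importer of erythroid cells. It read 10.82, 10.94 and 10.38 in knockout against 9.83, 10.38 and 10.23 in control Ter119- cells, where the highest control and the lowest knockout array were nearly level. It read 12.41 and 12.30 in knockout against 12.68, 12.57 and 12.79 in control Ter119+ cells, with both knockout arrays below the controls. Neither difference was called, at 0.57 (SE 0.16, adjusted p = 0.0859) and -0.33 (SE 0.18, adjusted p = 0.506). Slc2a3, which encodes GLUT3, read 7.40, 7.69 and 7.64 against 7.48, 8.24 and 7.92 in Ter119- cells, and 7.29 and 7.60 against 7.35, 7.43 and 7.49 in Ter119+ cells, with overlap in both.

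Knockouts were lower for 2 transporters that were not on the list. Slc16a1 encodes MCT1, another lactate carrier, and read 8.42, 8.28 and 8.60 in knockout and 8.85, 9.36 and 9.13 in control Ter119- cells. In Ter119+ cells it read 9.07 and 9.38 against 10.27, 9.77 and 10.26. Knockouts were lower in both populations, with differences of -0.68 (SE 0.16, adjusted p = 0.0458) and -0.88 (SE 0.18, adjusted p = 0.0191). Slc2a4, which encodes the insulin-responsive glucose transporter GLUT4, read 7.15 and 7.54 in knockout and 8.32, 8.12 and 8.51 in control Ter119+ cells, a difference of -0.97 (SE 0.17, adjusted p = 0.00873). In Ter119- cells its difference of -0.45 was not called (adjusted p = 0.174). Calls of genes outside the list, here and below, were not followed with single arrays left out or with the EYFP genotype as a covariate.

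**Figure D3:**
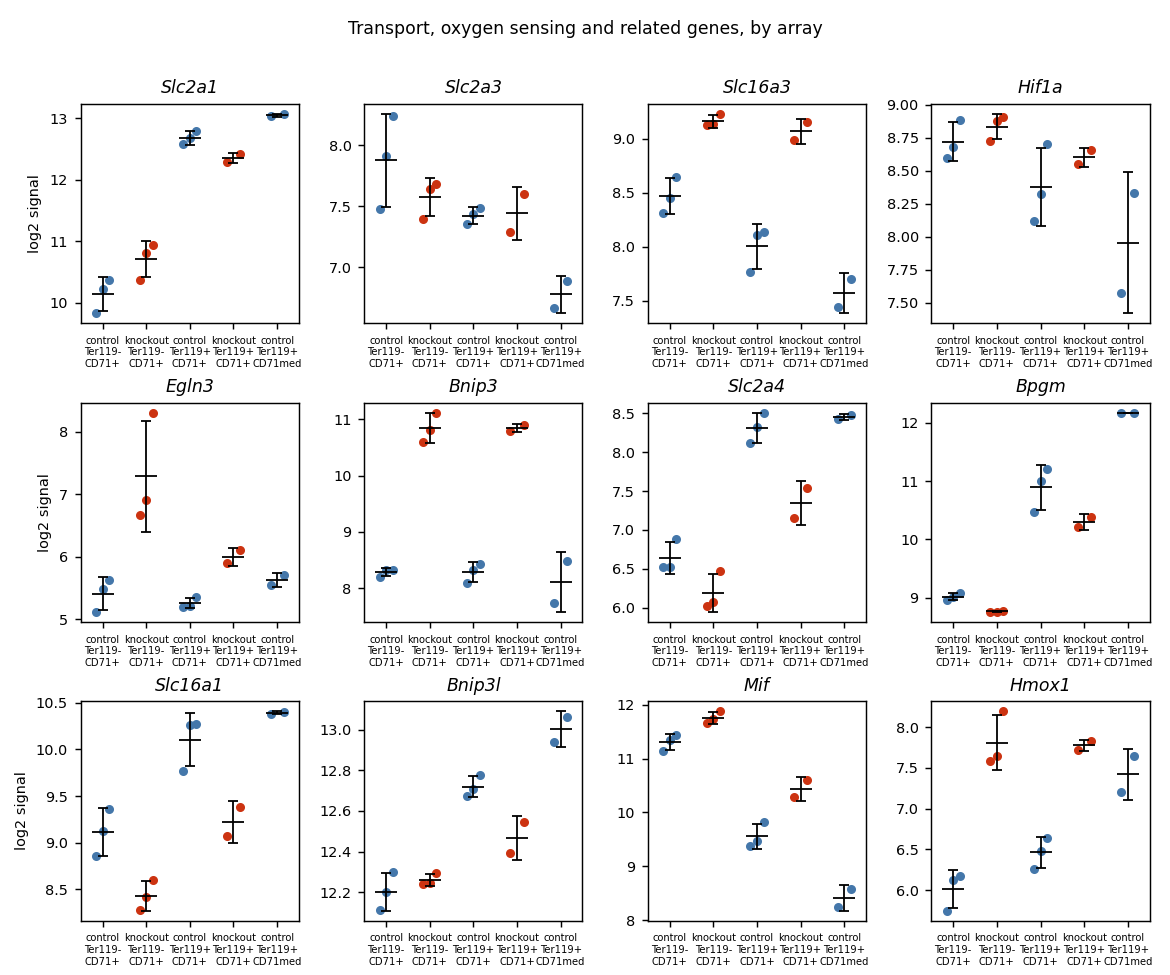
Points give the log2 signal of single arrays for 12 genes by group, with mean and SD as black bars (2 or 3 arrays a group; blue control, red knockout). Slc2a1, Slc2a4, Slc16a1, Bpgm and Bnip3l are higher in Ter119+ than in Ter119- controls, while Slc16a3 is lower there and higher in knockouts.

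The transcripts of HIF itself were not called in either knockout comparison. Hif1a read 8.72, 8.88 and 8.90 in knockout and 8.88, 8.68 and 8.60 in control Ter119- cells, and 8.55 and 8.65 against 8.32, 8.70 and 8.12 in Ter119+ cells. The groups overlapped, and the differences were 0.11 (SE 0.18, adjusted p = 0.903) and 0.22 (SE 0.20, adjusted p = 0.772), with 95% intervals of -0.28 to 0.50 and -0.21 to 0.66. Epas1, the other alpha subunit, lay between 4.99 and 5.51 in all arrays, with differences of -0.11 and -0.15. Arnt, the shared partner, read 9.38, 9.49 and 9.21 against 9.31, 9.48 and 9.51 in Ter119- cells, and 10.03 and 9.66 against 9.98, 9.60 and 9.89 in Ter119+ cells, with differences of -0.07 and 0.02. HIF protein was not measured.

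Of the 2 oxygen sensors, Egln3 changed. Egln3 encodes the hydroxylase PHD3, itself a HIF target. It read 6.66, 8.31 and 6.90 in knockout and 5.49, 5.63 and 5.11 in control Ter119- cells, and embryo 10 stood over 1 unit above the other knockouts. The difference was 1.88 (SE 0.31, adjusted p = 0.00629). It read 6.10 and 5.90 in knockout against 5.21, 5.35 and 5.20 in control Ter119+ cells, separated, with a difference of 0.75 (SE 0.34, adjusted p = 0.378) that was not called. Egln1, the main sensor PHD2, read 8.49, 8.61 and 8.62 against 8.11, 8.40 and 8.33 in Ter119- cells, and 7.83 and 8.34 against 7.56, 7.73 and 7.77 in Ter119+ cells. Knockouts were above controls in both populations, and neither difference was called, at 0.30 (SE 0.15, adjusted p = 0.433) and 0.40 (SE 0.17, adjusted p = 0.342).

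Of the 4 mitochondrial targets, 3 were called in each population. On the brightest probe set of each gene, Bnip3 and Ak4 had, with Pfkp, the 3 largest differences of the 44 genes in both. The other Ak4 set gave smaller differences, 1.32 in Ter119- and 0.89 in Ter119+ cells, and does not hold that rank. Bnip3 encodes an outer-membrane receptor that marks mitochondria for removal. It read 10.81, 11.12 and 10.59 in knockout and 8.33, 8.33 and 8.21 in control Ter119- cells, and 10.90 and 10.79 against 8.33, 8.09 and 8.44 in Ter119+ cells. The lowest knockout array lay over 2 units above the highest control in each, and the differences were 2.55 (SE 0.18, adjusted p = 3.26e-06) and 2.56 (SE 0.20, adjusted p = 8.63e-06). Its relative Bnip3l, the NIX receptor that erythroid cells use to clear mitochondria, was not on the list. It read 12.29, 12.25 and 12.24 against 12.20, 12.11 and 12.30 in Ter119- cells, and 12.54 and 12.39 against 12.78, 12.67 and 12.71 in Ter119+ cells, with differences of 0.06 (SE 0.09, adjusted p = 0.908) and -0.25 (SE 0.11, adjusted p = 0.316) that were not called.

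Ak4 encodes a mitochondrial adenylate kinase. It read 8.87, 9.17 and 8.71 in knockout and 6.92, 6.57 and 6.57 in control Ter119- cells, and 7.38 and 7.0 against 4.99, 5.22 and 5.02 in Ter119+ cells. Knockouts were higher by 2.23 (SE 0.15, adjusted p = 1.76e-06) and 2.11 (SE 0.16, adjusted p = 8.63e-06). Higd1a, a hypoxia-induced protein of the inner membrane, read 8.90, 9.24 and 8.99 against 8.33, 7.77 and 7.81, a difference of 1.08 (SE 0.26, adjusted p = 0.0482). In Ter119+ cells Higd1a read 8.72 and 9.13 against 7.74, 8.13 and 7.68, also without overlap, and was not called at 1.08 (SE 0.29, adjusted p = 0.073). Fam162a, another hypoxia-induced mitochondrial protein, read 10.60, 10.80 and 10.63 against 10.34, 10.35 and 10.29 in Ter119- cells and was not called there, at 0.35 (SE 0.13, adjusted p = 0.193). In Ter119+ cells it read 10.09 and 10.23 against 9.26, 9.75 and 9.53 and was higher by 0.65 (SE 0.14, adjusted p = 0.0258).

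P4ha1 led the genes of collagen modification. It encodes the catalytic subunit of collagen prolyl hydroxylase and read 9.56, 9.65 and 9.20 in knockout and 8.14, 7.86 and 8.07 in control Ter119- cells. It read 9.56 and 9.59 in knockout against 7.66, 7.36 and 7.63 in control Ter119+ cells. The gap between the groups was over 1 unit in both, and the differences were 1.45 (SE 0.13, adjusted p = 4.62e-05) and 2.02 (SE 0.15, adjusted p = 5.85e-06). Plod2, a lysyl hydroxylase, was dim throughout and read 4.78, 5.46 and 4.20 in knockout and 3.56, 3.58 and 3.58 in control Ter119- cells. The 3 controls were nearly identical while the knockouts spread over more than 1 unit, and the difference was 1.24 (SE 0.22, adjusted p = 0.0108). In Ter119+ cells it read 3.77 and 3.43 against 3.32, 3.39 and 3.40 and was not called, at 0.23 (SE 0.25, adjusted p = 0.826). P4ha2 and Plod1, related hydroxylases, were called in no comparison, with Ter119- differences of 0.30 and -0.29.

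Of the 2 glycogen genes, 1 was called. Gys1, the glycogen synthase of muscle and most tissues, read 6.87, 7.34 and 6.69 in knockout and 6.13, 6.44 and 6.14 in control Ter119- cells, a difference of 0.73 (SE 0.17, adjusted p = 0.0444). It read 6.13 and 6.02 in knockout against 5.71, 5.69 and 5.67 in control Ter119+ cells and was not called, at 0.38 (SE 0.19, adjusted p = 0.442). Gbe1, the branching enzyme, read 8.12, 8.61 and 7.70 against 7.80, 7.10 and 7.15 in Ter119- cells, where knockout embryo 11 lay below control embryo 2, and 6.43 and 6.95 against 5.70, 6.64 and 6.55 in Ter119+ cells. Its differences of 0.79 (SE 0.29, adjusted p = 0.202) and 0.39 (SE 0.32, adjusted p = 0.732) were not called.

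Of the secreted and surface targets, Vegfa alone was called. Vegfa, the angiogenic growth factor, read 9.71, 9.89 and 9.10 in knockout and 8.47, 8.57 and 8.57 in control Ter119- cells, and 9.62 and 9.22 against 8.05, 7.81 and 8.06 in Ter119+ cells. Knockouts were higher by 1.03 (SE 0.18, adjusted p = 0.00974) and 1.45 (SE 0.20, adjusted p = 0.00146). Adm, the vasodilator peptide adrenomedullin, stayed between 5.03 and 5.63 in all arrays, and Car9, a surface carbonic anhydrase widely used as a hypoxia marker, between 4.88 and 5.22. Neither was called in any comparison, and the array gives no detection call that would tell a low transcript from background.

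Among the 7 remaining targets, Ero1l was called in both populations. Ero1l (now Ero1a), the oxidase that forms disulfide bonds in the endoplasmic reticulum, read 10.68, 11.14 and 10.66 in knockout and 9.74, 9.89 and 9.66 in control Ter119- cells. In Ter119+ cells it read 10.43 and 10.12 against 8.87, 8.97 and 8.82, and the differences were 1.06 (SE 0.14, adjusted p = 0.00123) and 1.38 (SE 0.15, adjusted p = 0.000275). Kdm3a, a histone demethylase, read 9.30, 9.48 and 8.76 against 8.33, 7.85 and 8.25 in Ter119- cells, a difference of 1.03 (SE 0.18, adjusted p = 0.0101). It read 9.49 and 9.15 against 8.65, 8.66 and 8.79 in Ter119+ cells, separated and not called, at 0.62 (SE 0.20, adjusted p = 0.151). Ankrd37, a small ankyrin-repeat gene, read 8.17, 8.39 and 7.15 against 6.59, 6.90 and 6.65, with embryo 11 over 1 unit below embryo 10, a difference of 1.19 (SE 0.24, adjusted p = 0.0194). In Ter119+ cells the values were 7.31 and 7.45 against 6.80, 7.07 and 6.95, and the difference of 0.44 (SE 0.26, adjusted p = 0.565) was not called.

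The other 4 of these targets were not called in either population. Mxi1, an antagonist of MYC, read 7.77, 8.0 and 7.59 against 7.52, 7.58 and 7.64 in Ter119- cells, and 8.36 and 8.26 against 8.70, 8.39 and 8.74 in Ter119+ cells. Its differences of 0.20 (SE 0.12, adjusted p = 0.535) and -0.30 (SE 0.14, adjusted p = 0.369) were not called. Ndrg1, Bhlhe40 and Ddit4, 3 stress-responsive genes, were called in no comparison at all. In Ter119+ cells Ndrg1 read 6.94 and 5.94 in embryos 10 and 11, against 6.12 to 6.14 in controls, so the knockout embryos disagreed by 1 unit. The same embryo 10 array was the higher of the pair for Ddit4 as well, at 6.55 and 5.82.

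Several measures moved with the knockout label beside these genes. The erythroid marker mean was lower and, in Ter119- cells, the neutrophil and myeloid mean higher in knockouts, as given above, and their part in the results was not tested. The Ter119- array of knockout embryo 10 had the highest myeloid marker mean. Without this 1 array, 12 of the 19 Ter119- calls remained. Ankrd37, Gys1, Higd1a, Kdm3a, Pgam1, Slc16a3 and Vegfa were then no longer called. For Hk2 the lowest difference without 1 array was 1.64 and for Egln3 it was 1.37, and both kept their call. Without the Ter119- array of control embryo 15 the count was also 12, and Ankrd37, Gys1, Higd1a, Pfkfb3, Pgam1, Plod2 and Slc16a3 were no longer called. The Ter119- array of control embryo 13 also decided the calls of Ankrd37, Gys1, Higd1a, Kdm3a and Pfkfb3. The Ter119- arrays of embryos 1, 11 and 2 ended only calls of Ankrd37, Gys1, Higd1a and Pgam1. Their highest adjusted p without 1 array was 0.105 for Ankrd37, 0.228 for Gys1, 0.236 for Higd1a and 0.114 for Pgam1. It was 0.0586 for Kdm3a, 0.0758 for Pfkfb3, 0.0521 for Plod2, 0.0704 for Slc16a3 and 0.0562 for Vegfa. In Ter119+ cells, Ldha and Pkm lost their calls without the Ter119+ array of knockout embryo 10 (adjusted p = 0.0738 and 0.0748). Fam162a lost its call without either knockout Ter119+ array or without that of control embryo 2 or 15 (highest adjusted p = 0.105).

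The R26 EYFP genotype also went with the knockout label, since both knockout Ter119+ arrays were +/+ and all controls ki/+. Among knockouts, only the Ter119- array of embryo 1 was ki/+. A fit with this genotype as a covariate therefore sets embryo 1 alone against the controls in Ter119- cells. It takes the genotype effect from embryo 1 against embryos 10 and 11, so an EYFP effect cannot be told apart from differences between these embryos. Embryo 1 is also the only male among the knockouts, so sex is one of these differences. With this genotype as a covariate, 5 of the 19 Ter119- calls remained (Ak4, Bnip3, P4ha1, Pfkp and Pgk1). In Ter119+ cells, 5 of 14 remained (Ak4, Aldoa, Bnip3, P4ha1 and Pfkp), with the genotype effect taken from Ter119- arrays. Of all genes, 0.166% and 0.0853% were called in these fits. The differences of Bnip3 were then 2.52 and 2.51, close to those without the covariate. Of the 14 Ter119- calls that were lost, 12 kept at least 80% of the difference without the covariate. Among these were Hk2 at 1.84 (adjusted p = 0.0813), Aldoa at 0.98 (0.0952) and Vegfa at 1.17 (0.158). The other 2 were smaller, Egln3 at 1.25 in place of 1.88 (adjusted p = 0.365) and Pfkfb3 at 0.73 in place of 1.10 (0.496). All 9 calls lost in Ter119+ cells kept 82.3 to 115.0% of their difference, among them Pgk1 at 1.17 (adjusted p = 0.0984).

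**Figure D4:**
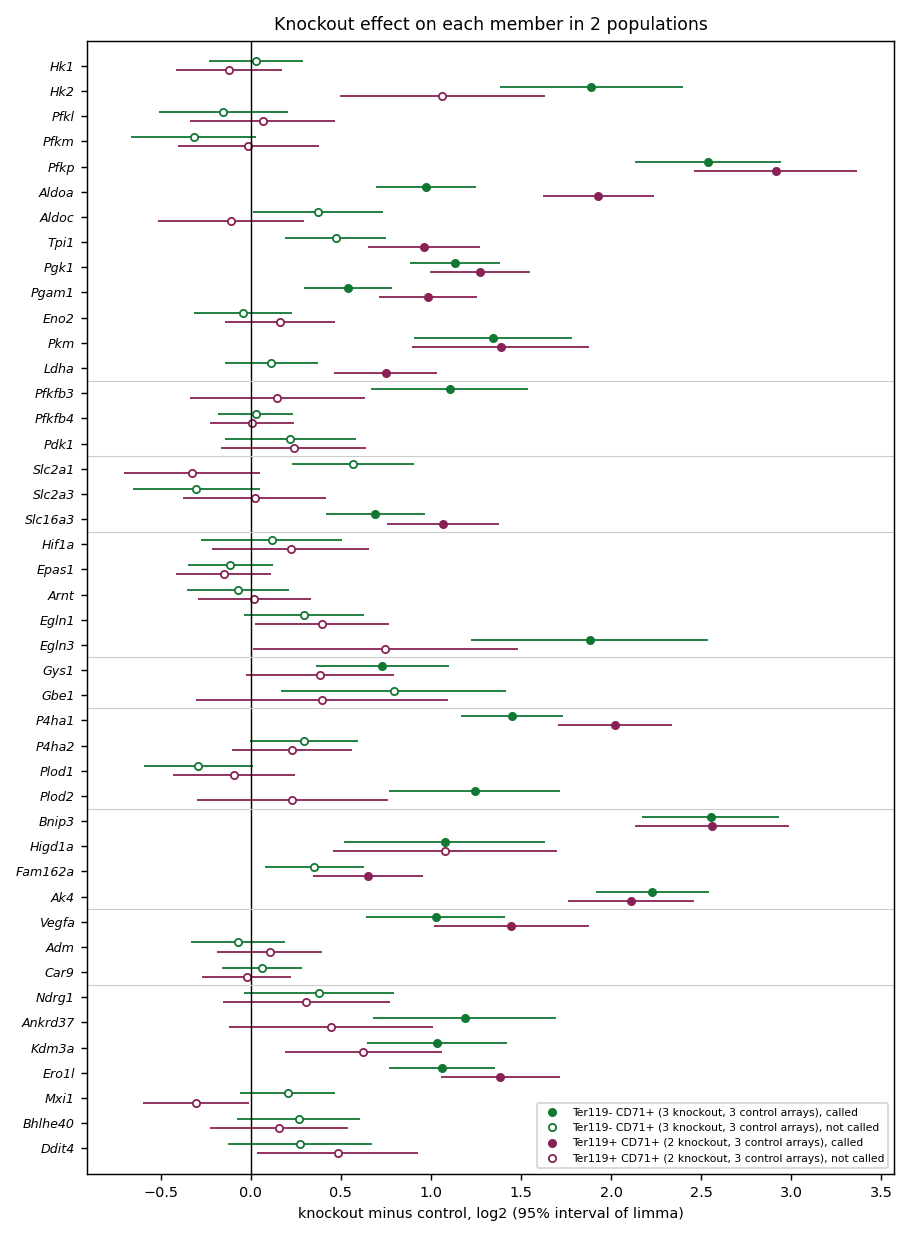
Each gene has its knockout minus control difference in log2 signal with limma's 95% interval, in Ter119- cells (green, 3 against 3 arrays) and Ter119+ cells (purple, 2 against 3 arrays), filled where called. Pfkp, Bnip3, Ak4 and P4ha1 lie far to the right in both colours, while Hk2, Egln3, Plod2 and Pfkfb3 have filled points in green only.

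Whether the knockout effect differed between the populations was tested as an interaction, and limma called 0 of the 44 genes (0.01% of all genes were called). At an unadjusted p under 0.05 there were 11 members and 1087 of all genes. Aldoa had the smallest p, with an effect larger by 0.96 in Ter119+ cells (95% interval 0.54 to 1.37, adjusted p = 0.181). Slc2a1 followed, with a difference between effects of -0.89 (-1.40 to -0.39, adjusted p = 0.39), then Ldha at 0.63 (0.25 to 1.02, adjusted p = 0.436). Pfkfb3, Plod2, Egln3 and Hk2 had smaller effects in Ter119+ cells, by -0.96, -1.01, -1.14 and -0.83, with adjusted p from 0.563 to 0.882. Calls in 1 population alone are therefore not shown to be particular to it. The 95% interval of the interaction was -0.56 to 0.58 for Bnip3, -0.59 to 0.35 for Ak4 and -0.84 to 0.84 for Higd1a.

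The maturation comparisons show how the same genes behave in erythroid cells as they mature. From Ter119- to Ter119+ cells of controls, 17 of 44 fell and 4 rose, where 11.7% and 7.27% of all genes were called lower and higher. These comparisons share the control arrays with the knockout comparisons above. Of the enzymes, 7 of 13 fell. Ldha went from 12.20, 12.55 and 12.48 to 11.22, 11.38 and 11.56, a difference of -1.02 (SE 0.12, adjusted p = 4.11e-05), and Aldoa fell by 1.0 (SE 0.13, adjusted p = 8.65e-05). Pkm fell by 0.84 (SE 0.20, adjusted p = 0.00945), Pgam1 by 0.73 (SE 0.11, adjusted p = 0.000354), Tpi1 by 0.70 (SE 0.13, adjusted p = 0.00132), Pfkm by 0.50 (SE 0.16, adjusted p = 0.0466) and Pgk1 by 0.45 (SE 0.12, adjusted p = 0.0134). Aldoc was the exception and rose by 0.67 (SE 0.17, adjusted p = 0.0114).

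Slc2a1 made the largest move of the list in this step, from 9.83, 10.38 and 10.23 to 12.68, 12.57 and 12.79, a rise of 2.53 (SE 0.16, adjusted p = 2.29e-07). That is a 5.79-fold higher signal, and the arrays lay over 2 units apart. Mxi1 rose from 7.52, 7.58 and 7.64 to 8.70, 8.39 and 8.74, by 1.03 (SE 0.12, adjusted p = 4.98e-05), and Kdm3a by 0.55 (SE 0.18, adjusted p = 0.048). In the other direction, Ak4 fell from 6.92, 6.57 and 6.57 to 4.99, 5.22 and 5.02, by 1.61 (SE 0.15, adjusted p = 5.01e-06). Pdk1 fell by 0.93 (SE 0.17, adjusted p = 0.00112), Ero1l by 0.88 (SE 0.14, adjusted p = 0.00038) and Fam162a by 0.82 (SE 0.13, adjusted p = 0.000373). Gbe1 (-1.06), Gys1 (-0.55), Egln1 (-0.59), Vegfa (-0.56), P4ha1 (-0.47) and Slc16a3 (-0.47) were also called lower, with adjusted p from 0.0139 to 0.0409. Bnip3 read 8.33, 8.33 and 8.21 before and 8.33, 8.09 and 8.44 after the step, and the 95% interval of its difference was -0.38 to 0.38. With a further quantile normalization 15 members were called in place of 21. Among those no longer called were P4ha1, Egln1 and Slc16a3 (-0.23, -0.37 and -0.29). Of the 21 calls, 11 held whichever array was left out. Gys1 and Vegfa lost theirs without any 1 of the 6 arrays (highest adjusted p = 0.152 and 0.14), and the count was 13 without the Ter119- array of control embryo 15. Aldoc lost its call without that array (adjusted p = 0.057) and Pgk1 without the Ter119+ array of embryo 2 (0.0765). Gbe1 lost its call without either array of embryo 2 (highest adjusted p = 0.0985). Egln1, Kdm3a, P4ha1, Pfkm and Slc16a3 each lost theirs without 1 or another of several arrays (highest adjusted p = 0.0648, 0.202, 0.0945, 0.185 and 0.0944).

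In the same step within knockouts, 11 of 44 fell and 2 rose, against 6.24% and 4.5% of all genes. Slc2a1 rose by 1.64 (SE 0.18, adjusted p = 7.25e-05), and Ak4 fell by 1.73 (SE 0.16, adjusted p = 2.65e-05). Hk2 fell from 7.96, 8.51 and 7.56 to 6.84 and 6.22, by 1.48 (SE 0.26, adjusted p = 0.00258), and Plod2 fell by 1.21 (SE 0.25, adjusted p = 0.0058). Gbe1 fell by 1.46 (SE 0.32, adjusted p = 0.0102), Gys1 by 0.89 (SE 0.19, adjusted p = 0.00804), Pdk1 by 0.92 (SE 0.19, adjusted p = 0.00621) and Egln3 by 1.29 (SE 0.34, adjusted p = 0.0266). Ero1l fell by 0.55 (SE 0.15, adjusted p = 0.0333), Pfkfb3 by 0.79 (SE 0.23, adjusted p = 0.0394), Fam162a by 0.52 (SE 0.14, adjusted p = 0.0316) and Pkm by 0.79 (SE 0.23, adjusted p = 0.0405), while Mxi1 rose by 0.52 (SE 0.14, adjusted p = 0.0262). With embryo as a fixed block, Fam162a, Mxi1 and Pkm were not called (adjusted p = 0.0508, 0.0595 and 0.0831). Aldoa and P4ha1, both called lower in the control step, differed by -0.04 (-0.35 to 0.27) and 0.10 (-0.22 to 0.42) in knockouts. The count fell from 13 to 6 without the Ter119+ array of embryo 10, and Ak4, Gys1, Hk2, Plod2 and Slc2a1 kept their calls whichever array was left out. Egln3 lost its call without either knockout Ter119+ array (highest adjusted p = 0.107), and Gbe1 and Pdk1 without that of embryo 10 (0.133 and 0.107). Without the Ter119- array of embryo 10 the Egln3 difference was -0.78 (adjusted p = 0.0131) and that of Pfkfb3 -0.50 (0.0922). Ero1l, Fam162a, Mxi1, Pfkfb3 and Pkm each lost theirs without 1 or another of several arrays (highest adjusted p = 0.151, 0.208, 0.164, 0.121 and 0.14). The neutrophil and myeloid markers also went down in this step, with 5 of 19 called lower, and their part in it was not tested.

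From Ter119+ to CD71med control cells, 14 of 44 fell and 1 rose, against 9.21% and 4.11% of all genes. Ldha continued down to 10.05 and 9.85, a difference of -1.44 (SE 0.13, adjusted p = 7.6e-05). Pdk1 reached 7.26 and 6.86, a difference of -1.28 (SE 0.19, adjusted p = 0.00087), and Ero1l 7.84 and 7.71, a difference of -1.11 (SE 0.15, adjusted p = 0.000636). All 3 had already fallen in the step before, and no array of a later population overlapped the earlier one. Among the enzymes, Pfkm fell by 1.05 (SE 0.18, adjusted p = 0.0023), Tpi1 by 0.96 (SE 0.15, adjusted p = 0.00106), Pfkl by 0.89 (SE 0.19, adjusted p = 0.00679), Pgk1 by 0.54 (SE 0.13, adjusted p = 0.0148), Aldoa by 0.54 (SE 0.14, adjusted p = 0.0247) and Pgam1 by 0.52 (SE 0.13, adjusted p = 0.0154). Higd1a read 7.40 and 6.17 in embryos 13 and 15, over 1 unit apart, and fell by 1.07 (SE 0.29, adjusted p = 0.0268). Its difference was -1.68 without the CD71med array of embryo 13 (adjusted p = 0.00221) and -0.45 without that of embryo 15 (0.407). P4ha1 fell by 0.87 (SE 0.15, adjusted p = 0.00202), Fam162a by 0.82 (SE 0.14, adjusted p = 0.00235), Egln1 by 0.79 (SE 0.17, adjusted p = 0.00899) and Slc2a3 by 0.64 (SE 0.18, adjusted p = 0.0344). Mxi1 rose by 0.48 (SE 0.14, adjusted p = 0.0349), a call that was lost with embryo as a fixed block (adjusted p = 0.0504). Slc2a1 read 13.07 and 13.03, above all earlier arrays, and this further difference of 0.37 (SE 0.18, adjusted p = 0.194) was not called. A further quantile normalization called 10 members in place of 15. Among those no longer called were Pgam1 (-0.23) and Pfkl (-0.55). Without the CD71med array of embryo 15 the count fell from 15 to 8. Higd1a, Pfkl, Pgam1, Pgk1, Aldoa, Mxi1 and Slc2a3 were not called there. Slc2a3 was not called without any 1 of the 5 arrays, and their highest adjusted p without 1 array ran from 0.0695 (Pfkl) to 0.407 (Higd1a). The Ter119+ array of embryo 13 decided Higd1a, Aldoa, Mxi1 and Pgk1 as well, that of embryo 15 Higd1a and Aldoa, and the CD71med array of embryo 13 Mxi1 and Egln1 (adjusted p = 0.0791 for Egln1). The hepatocyte marker mean rose along these control populations too, from 5.85 to 5.96 through 6.27 to 6.46 up to 6.72 to 6.81, with 8 and then 5 of 18 called higher. The rise into CD71med cells was not confined to hepatocyte markers. The means of the myeloid, macrophage, megakaryocyte, lymphoid, mast cell and endothelial lists were also higher there than in control Ter119+ cells. The neutrophil and myeloid mean was 5.86 to 5.96 against 5.26 to 5.46, and the megakaryocyte mean 6.73 to 7.02 against 6.58 to 6.64. The part of these markers in the steps was not tested.

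Other genes of these pathways, from lists without any of the 44, were counted beside them. Of 14 measured further genes of glycolysis and its transport (20 listed), 0 were higher in knockout Ter119- and 0 in Ter119+ cells, while 1 and 2 were lower, the Slc16a1 and Slc2a4 calls above. Of all genes, 1.35% and 1.48% were called higher and 0.858% and 1.08% lower in the 2 populations. For 14 genes, 0 called higher is near that share. At the control step 4 of these rose (7.27% of all genes did). Bpgm, which makes the haemoglobin regulator bisphosphoglycerate, went from 9.08, 8.97 and 9.01 to 10.47, 10.99 and 11.21, a rise of 1.87 (SE 0.15, adjusted p = 1.81e-06), and reached 12.16 and 12.17 in CD71med cells, a further rise of 1.27 (SE 0.17, adjusted p = 0.000486). Slc2a4 rose by 1.67 (SE 0.16, adjusted p = 6.95e-06), Slc16a1 by 0.99 (SE 0.16, adjusted p = 0.000535) and Pfkfb2, a relative of Pfkfb3, by 0.74 (SE 0.14, adjusted p = 0.00157). In knockout Ter119+ cells Bpgm read 10.21 and 10.39 against 10.47, 10.99 and 11.21 in controls, and the difference of -0.59 (SE 0.17, adjusted p = 0.0893) was not called.

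The oxidative pathways beside glycolysis were counted in the knockout comparisons too. Of all genes, 1.35% and 0.858% were called higher and lower in Ter119- cells, and 1.48% and 1.08% in Ter119+ cells. Of 8 measured genes of the pentose phosphate pathway (9 listed), 0 were called higher or lower in either population. The same held for 21 measured genes of pyruvate oxidation and the citric acid cycle (23 listed). For lists of this size, 0 calls is near the share of all genes. The median differences of the 2 lists were -0.10 and -0.19 in Ter119- cells, and -0.03 in Ter119+ cells for both. In Ter119- cells 4 of the 8 and 9 of the 21 had every knockout array below every control array (11.6% of all genes). There 0 and 1 had every knockout array above (9.92%). In Ter119+ cells 1 and 2 had every knockout array below (10.7%), and 1 and 0 above (11.4%). At the control step 8 of the 21 fell and 1, Ogdh, rose (0.58, SE 0.14, adjusted p = 0.00805), and 11 of 21 fell in the later step. Of all genes, 11.7% fell and 7.27% rose at the control step, and 9.21% fell in the later step. Of 12 further genes of oxygen sensing, which include Vhl and Hif1an, 0 were called in Ter119- cells. In Ter119+ cells 1 of the 12 was called higher, where 1.48% of all genes were. This was Cited2, a competitor of HIF for its coactivators (0.56, SE 0.12, adjusted p = 0.0285). Vhl differed by -0.02 (-0.23 to 0.19) and 0.01 (-0.22 to 0.25).

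Of 26 measured further HIF targets (28 listed), 4 were higher in knockout Ter119- cells and 3 in Ter119+ cells, with 0 lower, where 1.35% and 1.48% of all genes were called higher. Hmox1, the heme-degrading oxygenase, which is also induced by oxidative stress, was called in both. It read 7.65, 8.19 and 7.59 against 5.75, 6.12 and 6.17, higher by 1.80 (SE 0.18, adjusted p = 0.000103), and 7.83 and 7.72 against 6.48, 6.26 and 6.65, higher by 1.31 (SE 0.20, adjusted p = 0.00277). Pgm1, a phosphoglucomutase linking glycogen to glycolysis, read 6.59, 6.72 and 6.40 against 5.43, 5.59 and 5.30, higher by 1.13 (SE 0.11, adjusted p = 8.22e-05). Stc2, a secreted stanniocalcin, read 6.78, 7.59 and 5.98 against 5.12, 5.29 and 5.11, highest in embryo 10, a difference of 1.61 (SE 0.30, adjusted p = 0.0148). Kdm4c, a histone demethylase, was higher by 0.68 (SE 0.15, adjusted p = 0.0351). In Ter119+ cells the other calls were Mif, a cytokine, which read 10.28 and 10.60 against 9.37, 9.82 and 9.48 (0.88, SE 0.16, adjusted p = 0.00948), and Pgm2, also a phosphoglucomutase (0.72, SE 0.16, adjusted p = 0.0271).

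Of the 44 genes, 7 had more than 1 probe set with their symbol alone. For Bnip3, Pgk1, Pgam1, Pkm, Higd1a and Ak4 every probe set was higher in knockouts in both populations. Bnip3 gave 2.21 and 2.17 with its other set, and Pkm 1.77 and 1.66. Ak4 gave a smaller 1.32 (adjusted p = 0.00317) and 0.89 (adjusted p = 0.0427) with the other set, and its fall in the control step became -0.53 (adjusted p = 0.0692). Of the 3 sets each of Pgk1 and Pgam1, 2 held identical values, so they are 1 measurement, and the remaining set of Pgam1 was not called in Ter119- cells (adjusted p = 0.0853). Higd1a was called in Ter119- cells by the other set (1.49, adjusted p = 0.0374), and in this fit over all probe sets the kept set had an adjusted p of 0.0557. The kept sets of Hk1 and Pkm are listed under no RefSeq mRNA. The accession of the kept Hk1 set is listed for 18 sets, 16 of them shared with the ribosomal gene Rpl17, so its values may not be those of Hk1. The other Hk1 set gave -0.20 and -0.52, neither called. Genes with near-identical copies elsewhere in the genome, such as the processed copies of glycolytic genes, can share signal between probe sets and are uncertain to that extent.

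**Figure D5:**
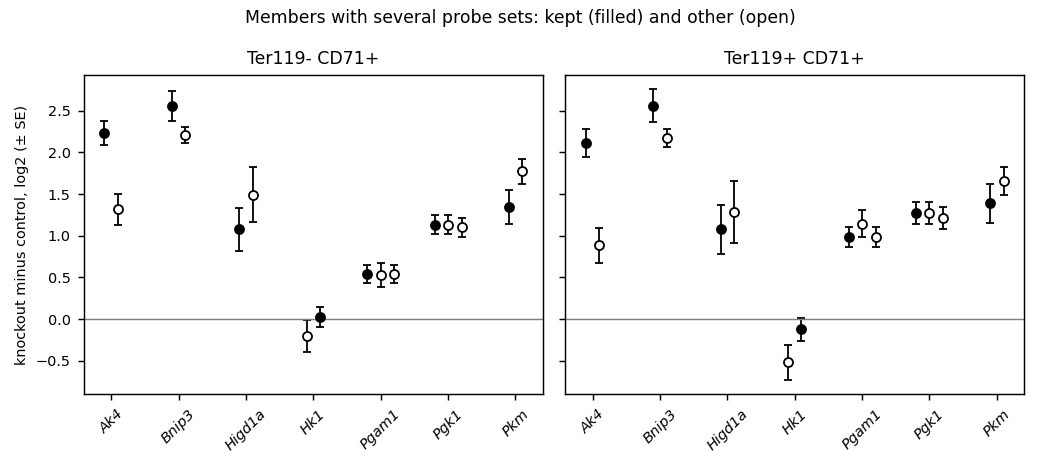
For the 7 genes with more than 1 probe set, points give the knockout minus control difference in log2 signal with its SE, for the kept set (filled) and the others (open), in Ter119- cells (left) and Ter119+ cells (right). All sets of 6 genes lie above 0 in both panels, Ak4 differs most between its sets, and Hk1 lies near or below 0.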

How the data were processed

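The 13 arrays measured RNA of sorted fetal liver cells from 6 mouse embryos. The authors deposited log2 signals per probe set. The submitters' processing notes name RMA, and the mm9 build without its role. Versions are not given in the sources used here. RMA adjusts background and quantile-normalises across arrays, so changes shared by most genes are removed. Of 35556 probe sets, 21789 carried 1 gene symbol, 1621 several and 12146 none. Each of 19938 genes took its brightest probe set, by the mean of the 13 arrays, and 999 genes had several. No low-signal filter was used.

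One limma fit (version 3.58.1, R 4.3.3) of 5 group means on the 13 arrays gave all 6 comparisons, two-sided, with 8 residual degrees of freedom and Benjamini-Hochberg adjustment over 19938 genes. Each embryo is 1 animal, and within a group every array is a different embryo. The p-values measure the spread of arrays within groups, pooled over the 5 groups. Arrays of 1 embryo in different groups were treated as independent here. The 8 degrees of freedom therefore count arrays rather than animals, and the maturation steps were compared unpaired in this fit. The small number of arrays limits the precision. Equal embryo numbers mark 1 animal. The deviations of its arrays correlated at -0.225 to 0.35 (9 pairs), against -0.426 to 0.426 for different embryos (58 pairs), and blocked fits were run as alternatives. The fit was tested on simulated data.

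The 44 members and the other lists were chosen with earlier results of these data known. Values were given for members called in any comparison and for 1 or 2 uncalled members per role with the highest level. From other lists at most 4 called genes per comparison were named, by smallest adjusted p, and Bnip3l, Vhl and Bpgm beyond that were chosen after their values were seen. Promoter windows came from RefSeq.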

Additional observations from a re-analysis of the deposited data

How the results depend on the processing

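Over the 6 comparisons, 82 calls of single members gave 1281 values under alternatives. Calls of genes outside the 44 were not followed through them. Of these 1091 kept their direction and call, 190 kept the direction only and 0 reversed. In the knockout comparisons, 19 members were called in Ter119- and 14 in Ter119+ cells. Quantile normalization again gave 18 and 14, median centring 17 and 13, the mean of all probe sets 19 and 14, an intensity trend with a robust prior 20 and 15, and the groups compared alone 14 and 11. A covariate for the EYFP reporter left 5 and 5 called. Array weights gave 26 and 11, with 3151 and 128 of all genes called in place of 441 and 510. The 26 hold 25 higher and 1 lower, Pfkm (-0.36, adjusted p = 0.0492). The knockout step gave 8 members with the groups compared alone and 4 with array weights, in place of 13, and the cause was not tested. Leaving out 1 array gave 12 to 18 calls in knockout Ter119- cells, 11 to 16 in knockout Ter119+ cells, 0 to 0 for the interaction, 13 to 18 for the control step, 6 to 13 for the knockout step and 8 to 14 for the step to CD71med cells. Of the 82 calls, 44 held whichever array was left out and 31 under every alternative run. Quantile normalization again gave 15 calls in place of 21 in the control step (11 in place of 17 lower) and 10 in place of 15 in the step to CD71med cells (9 in place of 14 lower). With embryo as a fixed replicate block, 23, 10 and 14 members were called in the 3 maturation comparisons and 0 in the interaction, and with a random block 19, 14, 0, 22, 14 and 15 in the 6 comparisons. The fixed block cannot be fitted to the knockout comparisons, since no embryo has both genotypes. Keeping the 13292 brightest genes left 39 members and gave 18 and 15 knockout calls. An alternative chosen after seeing the data, probe sets under a RefSeq mRNA accession only, gave 19 and 15.

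Dim members, such as Plod2, Car9, Adm and Epas1, have no detection call here. A member without a call is not shown to be unaltered. Where a 95% interval is given beside such a member, it bounds the difference in array signal only, and several uncalled members, the dim ones among them, have none here.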
